A study of Mus musculus with 2 samples.

Results

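The genes described here are the nuclear genes of oxidative phosphorylation together with Chchd10, in dorsal mouse skin. They were taken by symbol from the gene list of the count tables: every symbol that starts with Nduf, Uqcr or Atp5, or that is Cox followed directly by a digit, plus Chchd10, Sdha, Sdhb, Sdhc, Sdhd and Cycs. The rule found 108 of 33904 genes, with 107 distinct symbols because Atp5o had 2 identifiers. The 13 protein-coding genes of the mitochondrial genome, whose symbols start with mt-, were kept apart as a sum of their own.

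The data are single-cell RNA counts from 1 control library (Ctrl) and 1 library of an atopic dermatitis-like model (AD). Both came from female C57BL/6J mice aged 7 weeks whose back hair had been removed on the day before treatment began. The AD mice received MC903 (calcipotriol, a vitamin D analogue) in ethanol on the back at 4.5 nmol per application on 10 consecutive days, the Ctrl mice received ethanol alone, and the skin was taken on day 10. Cells were released with collagenase and DNase and dead cells were removed. The number of mice in each library is not given in the sources used here. With 1 library per group there is no replicate, so no difference below carries a test, and every interval is a 95% interval of counting error only.

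Oxidative phosphorylation passes electrons from NADH and succinate through complex I (the Nduf genes), complex II (the Sdh genes), complex III (the Uqcr genes), cytochrome c (Cycs) and complex IV (most Cox genes) to oxygen, and ATP synthase (the Atp5 genes) uses the resulting proton gradient to make ATP. Most subunits are encoded in the nucleus. A small core of complexes I, III and IV and of ATP synthase is encoded by the mt- genes. Those complexes, unlike complex II, are thus built from both genomes. CHCHD10 is a small protein of the mitochondrial intermembrane space, a paralogue of CHCHD2, and mutations in its human gene cause motor neuron and muscle disease with mitochondrial damage. Skin holds cells of very different energy use, from lipid-producing sebocytes and adipocytes to dermal fibroblasts, which build and maintain the matrix.

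Members lie on many chromosomes, and their start regions are the most direct sequence that can be set beside the counts. Chchd10 spans chr10:75933130-75937747 on the plus strand of GRCm38. A window of 300 bases, from 250 before to 50 after a transcript start, was found in RefSeq (GRCm38.p6) for 86 of the 107 member symbols. Each window was searched on both strands for 4 short motifs: the NRF1 core GCGCATGC, the ETS core CCGGAAG, the YY1 core ATGGCGG and the ERR half-site AAGGTCA. NRF1, ETS-family GABP, YY1 and ERR are known regulators of nuclear genes of the respiratory chain. The windows shown are those of Chchd10, the member with the largest difference between the libraries, of Cycs, the electron carrier, and of Atp5k and Ndufa6, members at the low and the high end in several cell types. Capitals mark a motif match.
Chchd10, chr10:75932880-75933179 (+): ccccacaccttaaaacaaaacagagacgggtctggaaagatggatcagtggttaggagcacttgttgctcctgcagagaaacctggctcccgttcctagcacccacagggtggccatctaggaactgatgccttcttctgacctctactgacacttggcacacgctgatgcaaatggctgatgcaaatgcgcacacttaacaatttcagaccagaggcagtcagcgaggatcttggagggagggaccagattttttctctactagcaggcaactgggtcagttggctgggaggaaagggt
Cycs, chr6:50566520-50566819 (-): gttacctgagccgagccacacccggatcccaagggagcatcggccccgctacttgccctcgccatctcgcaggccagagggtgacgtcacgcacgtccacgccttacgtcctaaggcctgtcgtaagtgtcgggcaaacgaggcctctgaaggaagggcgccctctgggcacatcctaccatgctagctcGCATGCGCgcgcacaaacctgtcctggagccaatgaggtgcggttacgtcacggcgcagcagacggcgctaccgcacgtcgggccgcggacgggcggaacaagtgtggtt
Atp5k, chr5:108434350-108434649 (-): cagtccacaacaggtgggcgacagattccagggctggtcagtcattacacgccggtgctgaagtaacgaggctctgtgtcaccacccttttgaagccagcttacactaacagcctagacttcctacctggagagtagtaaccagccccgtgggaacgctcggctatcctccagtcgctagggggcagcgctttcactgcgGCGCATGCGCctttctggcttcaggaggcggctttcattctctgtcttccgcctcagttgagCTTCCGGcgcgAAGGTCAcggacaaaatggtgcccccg
Ndufa6, chr15:82354242-82354541 (-): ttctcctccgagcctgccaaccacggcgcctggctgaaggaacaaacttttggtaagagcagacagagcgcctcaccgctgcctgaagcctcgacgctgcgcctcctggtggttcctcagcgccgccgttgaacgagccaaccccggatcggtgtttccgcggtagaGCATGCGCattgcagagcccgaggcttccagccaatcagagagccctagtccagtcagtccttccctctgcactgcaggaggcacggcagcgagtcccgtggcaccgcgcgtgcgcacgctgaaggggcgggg

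The Chchd10 window held none of the 4 motifs. The Cycs and Ndufa6 windows each held the NRF1 core on the other strand, as GCATGCGC. The Atp5k window held an NRF1 core that reads on both strands because 2 matches overlap, the ETS core on the other strand as CTTCCGG, and the ERR half-site. Among all 92 member windows, 14.1% held the NRF1 core against 2.71% of all 32851 windows of the same length, 27.2% held the ETS core against 8.86%, 16.3% held the YY1 core against 4.05% and 8.70% held the ERR half-site against 4.72%. At least 1 of the 4 motifs stood in the windows of 46 of the 86 members. A match is a string of letters and not a binding site.

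The Ctrl library held 12598 barcodes and 125184653 UMIs, and the AD library 8778 barcodes and 76106062 UMIs. A total of 35 barcodes occurred in both. Barcodes with 200 to 6000 genes and at most 10% mt- UMIs were kept, 11399 and 8179. A kept barcode was given a cell type when it held at least 3 of the 5 to 8 markers of that type and led the next type by 1.5 times. The 8 types with at least 50 cells in both libraries were compared: fibroblasts (5838 Ctrl and 4629 AD cells), basal keratinocytes (873 and 280), macrophages (415 and 205), T cells (544 and 360), endothelial cells (123 and 148), lymphatic endothelial cells (122 and 149), pericytes with vascular smooth muscle (191 and 135) and Schwann cells (186 and 81). A level in CPM is a count of UMIs scaled to 1000000 UMIs of the type. The markers of each of the 8 types summed to between 2376 and 44922 CPM in its own cells. The fibroblast markers summed to 44107 CPM in Ctrl and 12203 in AD fibroblasts, so the markers that define the type were themselves lower in AD as a sum. Barcodes gated as erythroid also held fibroblast markers (4731 CPM in AD) and were not described. Levels come from the UMIs summed over the cells of a type, and they compare 1 gene between cells and never 2 genes, since 3' counts of different genes are not on 1 scale.

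Chchd10 was the member that differed most. In the 5838 Ctrl fibroblasts it gave 268 UMIs, 4.87 CPM (4.31 to 5.49), and in the 4629 AD fibroblasts 8157 UMIs, 221 CPM (216 to 225). The AD level was 45.3 times the Ctrl level, a log2 ratio of 5.50 (5.32 to 5.68). With 1 CPM added to both levels, as in all gene rankings here, it stood in place 3 from the top of the 3391 genes tested in fibroblasts. Chchd10 was thus a rare transcript in Ctrl fibroblasts and a well counted one in AD fibroblasts.

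The Chchd10 UMIs of AD fibroblasts were spread over many cells. At least 1 Chchd10 UMI was found in 3.13% of Ctrl fibroblasts (Clopper-Pearson 2.70 to 3.61) and in 54.4% of AD fibroblasts (52.9 to 55.8), although the median depth was lower in AD (7083 UMIs) than in Ctrl (8695.5). After each cell was thinned to 1000 UMIs, which left out 92 Ctrl and 71 AD fibroblasts, the shares were 0.331% and 17.1%. Among the AD fibroblasts, 891 held 1 Chchd10 UMI, 547 held 2, 349 held 3 and 730 held 4 or more. In Ctrl, 149 held 1 and 11 held 4 or more. The level did not follow depth: it was 198, 259, 213 and 159 CPM in AD fibroblasts with under 4000, 4000 to 8000, 8000 to 16000 and at least 16000 UMIs, against 3.65 to 8.31 CPM in the same ranges of Ctrl.

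**Figure D1:**
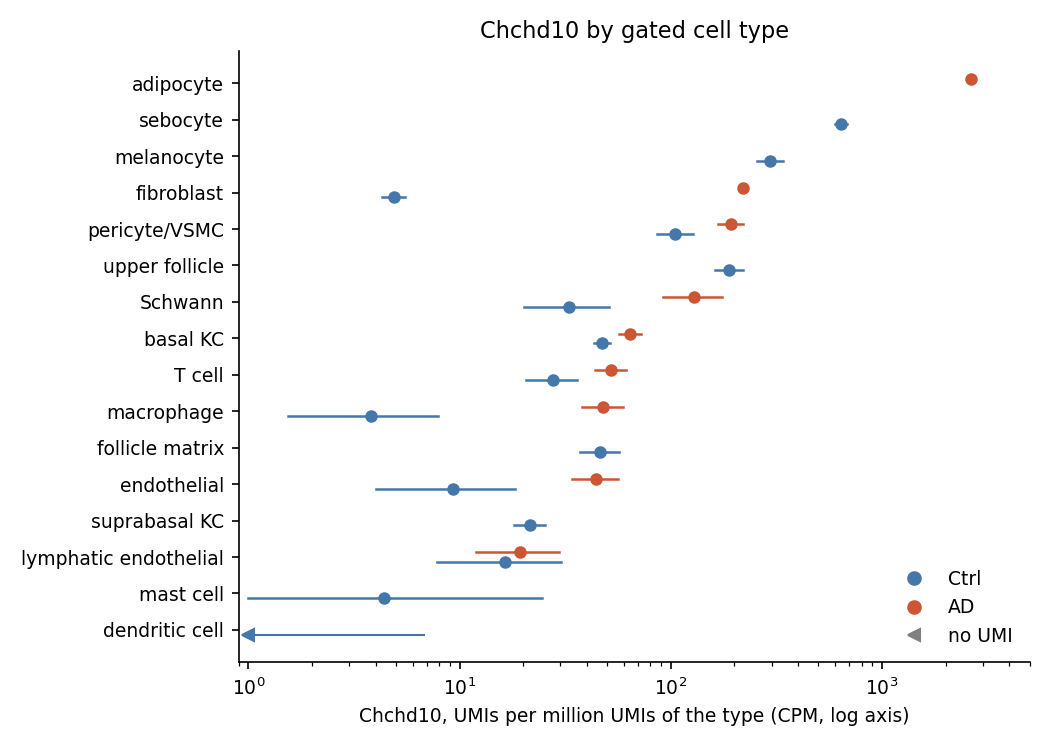
Chchd10 level in CPM (log axis) per gated cell type, with 1 point per library (Ctrl and AD) bars for the 95% counting interval and an arrow where no UMI was found (KC stands for keratinocyte and VSMC for vascular smooth muscle). The fibroblast points lie far apart, at 4.87 and 221 CPM, and the AD adipocytes have the highest level, 2644 CPM.

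Across the other cell types the levels spanned a wide range. In Ctrl the order from the top was sebocytes at 639 CPM (602 to 679), melanocytes at 295 (257 to 338), upper follicle and outer sheath cells at 189 (162 to 221), pericytes with vascular smooth muscle at 105 (85.7 to 127), basal keratinocytes at 47.3 (43.4 to 51.4), follicle matrix and inner sheath cells at 46.1 (37.1 to 56.8), Schwann cells at 33.1 (20.2 to 51.1), T cells at 27.6 (20.7 to 36.0), suprabasal keratinocytes at 21.6 (18.2 to 25.5), lymphatic endothelial cells at 16.4 (7.84 to 30.1), endothelial cells at 9.27 (4.0 to 18.3), fibroblasts at 4.87, mast cells at 4.39 (0.111 to 24.5) and macrophages at 3.82 (1.54 to 7.87). The 4 highest had intervals apart from each other and from the rest, while from basal keratinocytes downward each interval overlapped that of the next type. The 63 Ctrl dendritic cells had none, 0 of 63 cells, which allows a share of cells with a UMI of up to 4.76% (3 counts of the 63 cells). In AD, the highest level was that of the 80 adipocytes, 2644 CPM (2563 to 2727), with a UMI in 80 of 80 cells. Adipocytes store fat and sebocytes secrete it. Ctrl held 1 gated adipocyte, so no comparison was possible there.

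In 6 of the other 7 compared types the Chchd10 level was higher in AD beyond counting error. Macrophages had 7 UMIs, 3.82 CPM, in Ctrl and 84 UMIs, 47.8 CPM, in AD, a log2 ratio of 3.65 (2.54 to 5.0). Endothelial cells had 9.27 and 44.2 CPM (2.25, 1.19 to 3.53), Schwann cells 33.1 and 128 (1.95, 1.15 to 2.81), T cells 27.6 and 51.9 (0.91, 0.45 to 1.40), pericytes 105 and 192 (0.87, 0.53 to 1.22) and basal keratinocytes 47.3 and 64.2 (0.44, 0.22 to 0.65). In lymphatic endothelial cells the levels were 16.4 and 19.3 CPM, and the interval of the log2 ratio, -0.91 to 1.49, held 0. The fibroblast ratio was the largest and its interval lay above that of every other type.

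These smaller differences rest on few cells. The share of macrophages with a Chchd10 UMI was 1.45% in Ctrl (6 of 415 cells), and 41 of 205 AD macrophages held one, but macrophages were deeper in AD (median 7512 UMIs against 4082), and at 1000 UMIs the shares were 0.253% and 3.13%. In Schwann cells the share was 8.06% in Ctrl and 8.64% in AD, where 40 UMIs came from 7 cells, so the higher summed level there was a matter of few cells. Free RNA can give UMIs in cells that do not express a gene, and the lowest shares serve as a measure of it. In Ctrl they were 0 of 63 dendritic cells (median depth 8550 UMIs) and 1 of 108 mast cells (1590.5). In AD, among types with at least 50 cells, the lowest were the 8.64% of Schwann cells (3134) and 10.1% of lymphatic endothelial cells (5365), against 54.4% of fibroblasts. In the AD immune types with under 50 cells the levels varied. They were 18.9 CPM in mast cells (2 UMIs in 38 cells), 25.9 in dendritic cells (35), 55.1 in neutrophils (48) and 121 in basophils (42). Within AD, fibroblasts (221 CPM) and adipocytes (2644 CPM) held more Chchd10 than macrophages, endothelial cells, pericytes and Schwann cells. Fibroblast markers in AD summed to 362 CPM in macrophages, 410 in endothelial cells, 1190 in pericytes and 1856 in Schwann cells. Adipocyte markers summed to 6.26, 9.53, 1.74 and 6.41 CPM in the same order. The part of free RNA or of mixed barcodes in the AD levels of these types was not tested.

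Adipocyte RNA was measured directly in the AD fibroblasts. Adipocytes held 0.447 Chchd10 UMIs for each adipocyte-marker UMI, while AD fibroblasts held 60.0, with adipocyte markers at 3.68 CPM against 5921 in the adipocytes. In the 4531 AD fibroblasts without any adipocyte-marker UMI, 54.2% had a Chchd10 UMI and the level was 217 CPM, against 221 in all AD fibroblasts.

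A neighbour shares the locus. Chchd10 overlaps Mmp11 (chr10:75923222-75936496, minus strand), a matrix metalloproteinase gene, by 3367 bases, and Gm867 by 25 bases. Whether counting used the strand is not given in the sources used here, so reads in the overlap could count for the other gene. Mmp11 was also higher in AD fibroblasts, 152 CPM against 19.9 in Ctrl. In the 2365 AD fibroblasts without an Mmp11 UMI, 42.4% had a Chchd10 UMI, at 162 CPM. In the 2264 with an Mmp11 UMI, the share was 66.9% and the level 270 CPM. Sebocytes, melanocytes and upper follicle cells of Ctrl had 0 Mmp11 UMIs beside 1072, 209 and 166 Chchd10 UMIs. Chchd10 was thus also counted in cells without an Mmp11 UMI.

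Fibroblasts were also split into clusters found without the members, to see whether the AD level came from a few groups. Chchd10 lay between 0 and 25.4 CPM in the 8 clusters with at least 50 Ctrl fibroblasts and between 65.0 and 459 CPM in the 5 clusters with at least 50 AD fibroblasts, so the ranges did not overlap. Between 20.6% and 60.9% of the gated fibroblasts of an AD cluster held a UMI, against 0 to 6.57% in Ctrl. Clusters 7 and 13 held mostly other barcodes, with 275 of 746 and 81 of 573 cells gated as fibroblasts. Cluster 7 gave the 459 CPM, and the next highest AD cluster had 228. Cluster 25 was the only one with at least 50 gated fibroblasts of both libraries (79 and 107). Its Chchd10 level was 25.4 CPM (13.1 to 44.3) in Ctrl and 65.0 (49.9 to 83.2) in AD. Most of the other clusters came nearly from 1 library each, so a cluster and its library cannot be told apart there, and clusters are not replicates.

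**Figure D2:**
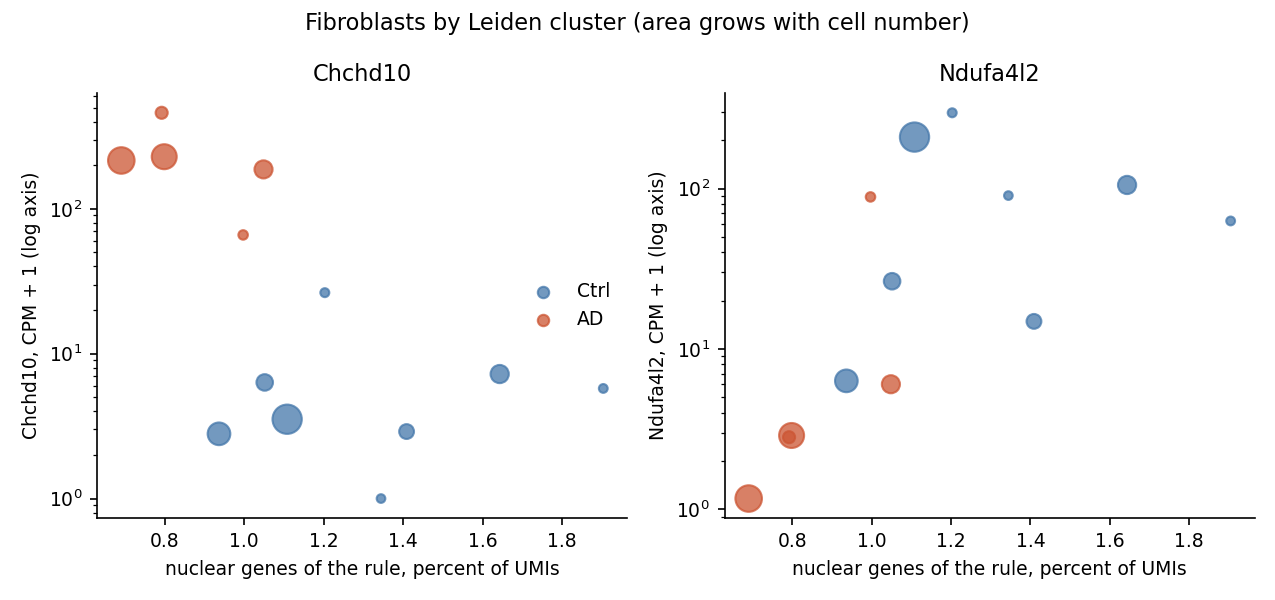
Gated fibroblasts by cluster, for clusters with at least 50 of them in a library. The x axis gives the summed members as a percent of UMIs, and the log y axis Chchd10 (left) or Ndufa4l2 (right) in CPM + 1. Each point is 1 cluster in 1 library, and its area grows with the number of cells. Chchd10 ranges from 0 to 25.4 CPM in Ctrl and from 65.0 to 459 in AD without overlap, while the summed members of the 2 libraries overlap on the x axis.

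Unlike Chchd10, the respiratory chain genes as a whole were lower in AD fibroblasts. The 108 members together took 1.21% of all UMIs in Ctrl fibroblasts (12063 CPM) and 0.836% in AD fibroblasts (8361 CPM), a log2 ratio of -0.53 (-0.53 to -0.52). The median cell showed the same, 1.06% in Ctrl (quartiles 0.873 and 1.34) and 0.748% in AD (0.591 and 0.95). In the clusters, the summed level ranged from 9362 to 19042 CPM in Ctrl and from 6902 to 10484 in AD, and in cluster 25 it was 12028 and 9970. The 2 ranges overlapped, with 4 of the 5 AD clusters at or below 9970 CPM.

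Of the 108 members, 73 passed the filter in fibroblasts (a mean of the 2 levels of at least 50 CPM). A member counted as higher or lower when it was past 1.5-fold with 1 CPM added, and 37 of the 73 were lower and 1, Chchd10, was higher. Among all 3391 genes tested in fibroblasts, 20.3% were lower and 19.6% were higher by that rule. The log2 ratio was below 0 in 70 of the 73 members, and their median was -0.62 against 0.02 for all genes tested.

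Complex I subunits, which form the NADH-oxidising entry point, were lower in 17 of the 31 tested, with a median log2 ratio of -0.65 and all 31 below 0. The lowest was Ndufc1, a subunit of the membrane arm, at 97.0 CPM in Ctrl and 27.1 in AD (log2 ratio -1.80). Ndufb2 was at 78.4 and 28.8 CPM (-1.41) and Ndufv3, an accessory subunit of the NADH-binding module, at 88.2 and 34.9 (-1.31). Ndufa6, an accessory subunit, was near 0 (117 and 117 CPM, -0.00). The ratio thus differed widely within complex I.

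ATP synthase had 11 of 17 tested members lower and a median of -0.72, the lowest of the complexes with more than 2 genes tested. Atp5k, which encodes subunit e of the membrane part, was at 94.1 and 34.0 CPM (-1.44), and Atp5e, the epsilon subunit, at 389 and 157 (-1.30). The catalytic core genes had ratios nearer to 0: Atp5b was at 293 and 260 CPM (-0.17) and Atp5a1 at 289 and 235 (-0.30). The 3 genes of the ring-forming subunit c gave -0.98 for Atp5g1 (159 and 79.8 CPM), -0.72 for Atp5g2 (258 and 157) and -0.52 for Atp5g3 (145 and 100.2). Atpif1, the natural inhibitor of ATP synthase, which the naming rule leaves out, was at 187 and 110 CPM (-0.77).

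Complex III had 3 of 7 tested members lower (median -0.51), complex IV subunits 3 of 12 (median -0.42) and complex II 1 of 2. Uqcrfs1, the Rieske iron-sulfur protein of complex III, was above 0 with 55.1 CPM in Ctrl and 66.0 in AD (0.26), and Uqcr11 was the lowest of that complex at 121 and 65.2 (-0.88). In complex IV, Cox6b1 was at 205 and 117 CPM (-0.80), Cox5a at 106 and 114 (0.10), Cox4i1 at 625 and 470 (-0.41) and Cox8a at 337 and 316 (-0.09). Sdhc, the membrane anchor of complex II, was at 69.9 and 36.5 CPM (-0.92) and Sdha, its flavoprotein, at 77.4 and 57.2 (-0.43), while Sdhb (45.8 and 36.5) and Sdhd (48.5 and 39.8) were under the filter. Cycs was at 79.8 and 63.5 CPM (-0.32).

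**Figure D3:**
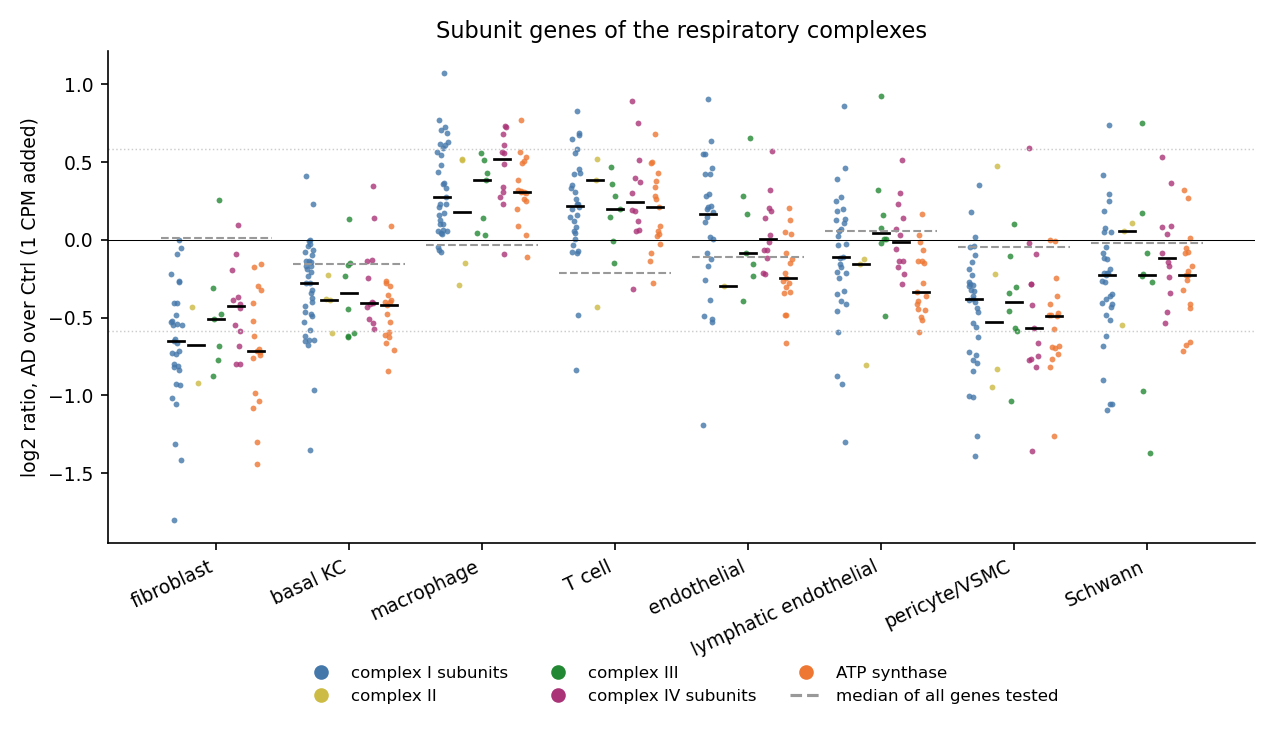
Log2 ratio of AD over Ctrl (1 CPM added) for the tested subunit genes of complexes I to IV and ATP synthase in the 8 compared types, with 1 point per gene. Black lines are medians, the grey dashed line is the median of all genes tested and dotted lines mark 1.5-fold. In fibroblasts all 31 complex I genes and all 17 ATP synthase genes lie below 0.

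Over all genes tested in fibroblasts, the log2 ratio rose weakly with transcript length (Spearman 0.18). The members tested in fibroblasts have short transcripts, with a median of 994 bases against 3892 for all genes tested. All genes under 1000 bases, 37 of them members, had a median log2 ratio of -0.44 in fibroblasts, against 0.12 for those of 3000 bases or more. Members under 1000 bases had a median of -0.71 and longer members -0.42. Over all members tested the Spearman value was 0.17, but it was -0.0043 within the shorter ones and -0.25 within the longer ones. The part of transcript length in the lower member level was not tested. Members whose window held the NRF1 core had a median of -0.64 (9 genes), and those without it -0.58 (52 genes). For the ERR half-site the medians were -1.11 (6 genes) and -0.58 (55 genes), for the ETS core -0.69 (14 genes) and -0.55 (47 genes), and for the YY1 core -0.55 (9 genes) and -0.63 (52 genes).

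Basal keratinocytes, the dividing layer of the epidermis, gave the same direction. The summed level was 21735 CPM in Ctrl and 17436 in AD, a log2 ratio of -0.32 (-0.33 to -0.31), and the median cell had 2.11% and 1.36% of its UMIs in the members. Of 80 members tested, 18 were lower and 0 higher, beside 17.8% lower and 10.0% higher of all genes tested. The share of members that were lower, 22.5%, was thus close to that of all genes. The median of all genes was itself -0.15 here and that of the members -0.38. Relative to the median of all genes, 3 members were lower and 1 was higher. With all deposited barcodes the log2 ratio of the sum was -0.04 and 1 member was lower.

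The lowest members in basal keratinocytes were Ndufc1 (183 and 71.2 CPM, -1.35), Ndufb2 (126 and 64.2, -0.97), Atp5k (178 and 98.9, -0.84), Cycs (226 and 135, -0.73) and Atp5o (352 and 215, -0.71). The highest were Chchd10, Ndufa6 (172 and 229 CPM, 0.41), Cox7a2l (352 and 447, 0.34), Ndufa8 (105 and 123, 0.23) and Cox4i1 (995 and 1097, 0.14). Sdha was at 90.1 and 68.5 CPM, Sdhb at 85.5 and 65.4, Sdhc at 90.1 and 59.1 and Sdhd at 69.1 and 58.9. Cell cycle genes differed in the same cells, with Mki67 at 603 CPM in Ctrl and 54.8 in AD and Top2a at 401 and 27.0. The part of cycling cells in the basal keratinocyte values was not tested.

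Macrophages went the other way. Their summed member level was 12741 CPM in Ctrl and 16203 in AD, a log2 ratio of 0.35 (0.32 to 0.37). Of 76 members tested, 14 were higher and 0 lower, beside 13.7% higher and 17.3% lower of all genes tested, and 67 were above 0. The share of members called higher, 18.4%, was not far from the background, while no member was lower. The median of the members was 0.31, that of all genes -0.03 and that of all genes with transcripts under 1000 bases 0.23. Members under 1000 bases had a median of 0.25 here and longer members 0.43. With all deposited barcodes the ratio of the sum was 0.56 and 40 members were higher, and with each cell thinned to 1000 UMIs it was 0.19, with 9 members higher and 5 lower.

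Complex I and IV held most of the higher members in macrophages, with 9 of 33 complex I subunits and 4 of 12 complex IV subunits. Ndufs3, a core subunit of complex I, was at 32.7 CPM in Ctrl and 70.0 in AD (1.07). It was followed by Atp5g1 (125 and 214, 0.77), Ndufa12 (45.3 and 77.9, 0.77), Cox8a (377 and 626, 0.73) and Ndufv2 (60.0 and 100.1, 0.73). Cox4i1 was at 670 and 1076 CPM (0.68) and Cycs at 84.0 and 121 (0.52). At the low end were Sdhc (87.9 and 71.7, -0.29), Cox14 (94.4 and 77.9, -0.27), Cox17 (90.6 and 80.2, -0.17), Sdha (76.4 and 68.8, -0.15) and Atp5k (103 and 95.6, -0.11), whose intervals held 0.

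T cells had a summed level of 13659 CPM in Ctrl and 16408 in AD, a log2 ratio of 0.26 (0.24 to 0.29). Markers of other types differed in the same cells, with the basophil list at 4.08 and 69.2 CPM and the dendritic list at 28.6 and 118. In the basophil list 2 of 5 markers were above their Ctrl level, and Il4, a cytokine that T cells also make, gave 6 UMIs in Ctrl and 177 in AD, while Mcpt8, Ms4a2 and Gata2 were at 0. In the dendritic list 2 of 6 were above, led by Ccr7, a homing receptor also found on T cells (19.4 and 112 CPM), while Flt3, Cd209a and Cd207 were at 0 in AD. The T cell markers themselves summed to 3814 and 2376 CPM, and the part of these differences in the member level was not tested. Of 73 members tested, 7 were higher and 2 lower, beside 7.54% higher and 20.2% lower of all genes tested. The median of all genes was -0.21 in T cells, and relative to it 21 members were higher and 1 was lower. The median was 0.20 for the members and 0.27 for all genes with transcripts under 1000 bases. The part of transcript length in the T cell values was not tested. Cox5b was at 167 and 311 CPM (0.89), Ndufv2 at 49.0 and 87.7 (0.83), Cox7a2l, a supercomplex assembly factor, at 300.2 and 507 (0.75), Ndufb10 at 135 and 218 (0.69) and Atp5g2 at 331 and 532 (0.68). Ndufb2 (65.3 and 36.2 CPM, -0.84) and the assembly factor Cox20 (65.3 and 37.3, -0.79) were lower, followed by Ndufs5 (87.3 and 62.3, -0.48), Sdha (-0.43) and Cox6a1 (239 and 192, -0.31).

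Depth moved with both of these results. The median depth of T cells was 3162 UMIs in Ctrl and 6081 in AD, and that of macrophages 4082 and 7512. In cells with 4000 to 8000 UMIs in both libraries, the log2 ratio of the summed level was 0.16 in macrophages (181 and 46 cells) and -0.06 in T cells (120 and 195 cells), against -0.59 in fibroblasts (1891 and 2180 cells). The direction in T cells therefore turned among cells of like depth, and that in fibroblasts did not.

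**Figure D4:**
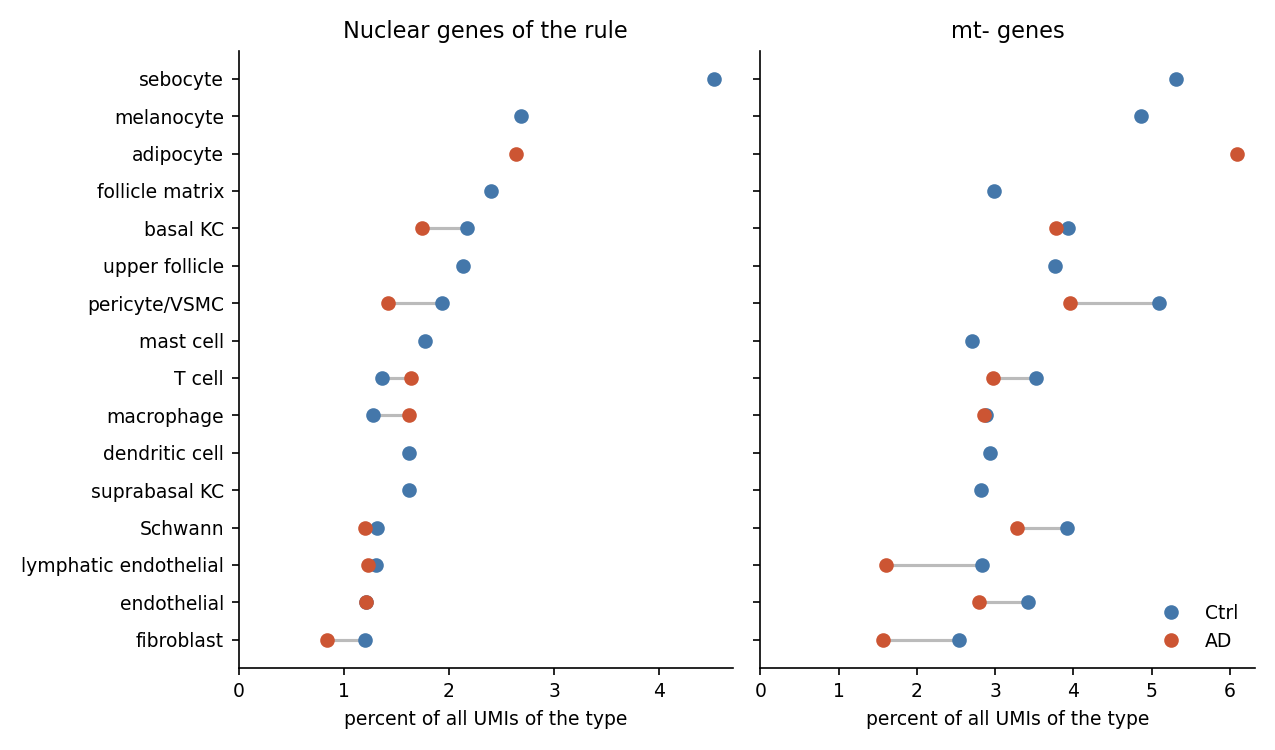
Summed level of the nuclear members and of the mt- genes per gated cell type and library, in percent of all UMIs, with 1 point per library, for types with at least 50 cells. Fibroblasts, basal keratinocytes and pericytes have a lower nuclear sum in AD, macrophages and T cells a higher one, and endothelial cells nearly equal values (1.21% in Ctrl).

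Pericytes with vascular smooth muscle, the contractile cells of vessel walls, had a summed level of 19328 CPM in Ctrl and 14206 in AD (-0.44, -0.47 to -0.41), with 29 of 80 members lower and 2 higher, beside 16.8% lower and 13.4% higher of all genes. Cycs was the lowest with 255 and 91.6 CPM (-1.47), and Ndufa4 was at 136 and 52.3 (-1.36). The 2 higher members were Chchd10 and Cox7a2l (199.7 and 302, 0.59). The summed level thus differed in the same direction as in fibroblasts. In the same cells the fibroblast markers summed to 684 and 1190 CPM, with 3 of 6 above their Ctrl level, and the endothelial markers to 120 and 278, with 1 of 6 above, Flt1, at 83.6 and 269 CPM. Pecam1, Cdh5, Kdr, Emcn and Cldn5 were at or under 3.49 CPM in AD. The part of fibroblast RNA in the pericyte values was not tested.

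In endothelial cells the sums were 12139 and 12157 CPM, a log2 ratio of 0.00 (-0.03 to 0.04). Of 67 members, 3 were higher and 2 lower, beside 8.7% higher and 16.9% lower of all genes, whose median was -0.11. Relative to that median 6 were higher and 1 was lower. Ndufa6 was at 118 and 223 CPM (0.91), Uqcrfs1 at 62.6 and 99.4 (0.66), Ndufa8 at 97.4 and 152 (0.64), Cox7a2l at 338 and 504 (0.57) and Ndufb11 at 124 and 182 (0.55). Ndufc1 was at 78.8 and 34.0 CPM (-1.19), Atp5o at 116 and 72.8 (-0.66), Ndufb8 at 105 and 72.8 (-0.53), Ndufa5 at 78.8 and 55.1 (-0.51) and Ndufa13 at 121 and 85.8 (-0.49). The equal sums thus held members of both directions. With each cell thinned to 1000 UMIs the ratio of the sum was 0.19, and 16 of 51 members were higher, beside 15.8% of all genes.

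Lymphatic endothelial cells had sums of 13028 and 12279 CPM (-0.09, -0.13 to -0.05, but 0.05 with each cell thinned to 1000 UMIs), with 2 of 74 members higher and 6 lower, beside 15.5% higher and 11.4% lower of all genes. Schwann cells had 13187 and 11976 CPM (-0.14, -0.20 to -0.08), with 3 of 77 higher and 11 lower, beside 15.2% higher and 18.2% lower of all genes. In both, member shares did not exceed those of all genes.

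Some members kept 1 direction across cell types that otherwise differed. Ndufc1 was below 0 in 7 of 7 types in which it was tested and past 1.5-fold in 6, the exception being macrophages (100.4 and 95.02 CPM, -0.08). Ndufb2 was below 0 in 6 of 7 types and Atp5k in 7 of 8. Uqcrfs1 was above 0 in 8 of 8 types, and Ndufa6 and Cox7a2l in 7 of 8. These members were named after their values were seen, and others were as steady. Atp5l was above 0 in 7 of 8 types, and Sdha, Cox14 and Uqcr11 were below 0 in 7 of 8. All types share the same 2 libraries, so their directions are not independent of each other. Atpif1 was also below 0 in all 8 types, from -0.23 in macrophages to -1.13 in Schwann cells.

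Several members exist as a common form and a tissue-restricted form. Ndufa4l2, a relative of the complex IV subunit Ndufa4 that is known as a target of hypoxia signalling, gave 5623 UMIs in Ctrl fibroblasts, 102 CPM, and 171 UMIs in AD fibroblasts, 4.62 CPM. The Ctrl level was 22.1 times the AD level, and with 1 CPM added Ndufa4l2 stood in place 9 from the bottom of the 3391 genes tested. It had a UMI in 33.6% of Ctrl fibroblasts and 2.33% of AD fibroblasts. Its common relative Ndufa4 was at 192 and 146 CPM (-0.39).

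Ndufa4l2 was highest in pericytes with vascular smooth muscle, at 456 CPM in Ctrl and 293 in AD (log2 ratio -0.64, -0.85 to -0.43). Suprabasal keratinocytes of Ctrl held 211 CPM, with a UMI in 48.0% of cells, and basal keratinocytes 44.6 in Ctrl and 7.00 in AD. It was at or under 4.24 CPM in T cells, macrophages, Schwann cells, melanocytes, mast cells and dendritic cells of either library described. Among fibroblast clusters it ranged from 5.32 to 296 CPM in Ctrl and from 0.165 to 87.7 in AD, with 296 and 87.7 in the shared cluster 25. The difference in fibroblasts was thus also seen within that cluster.

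**Figure D5:**
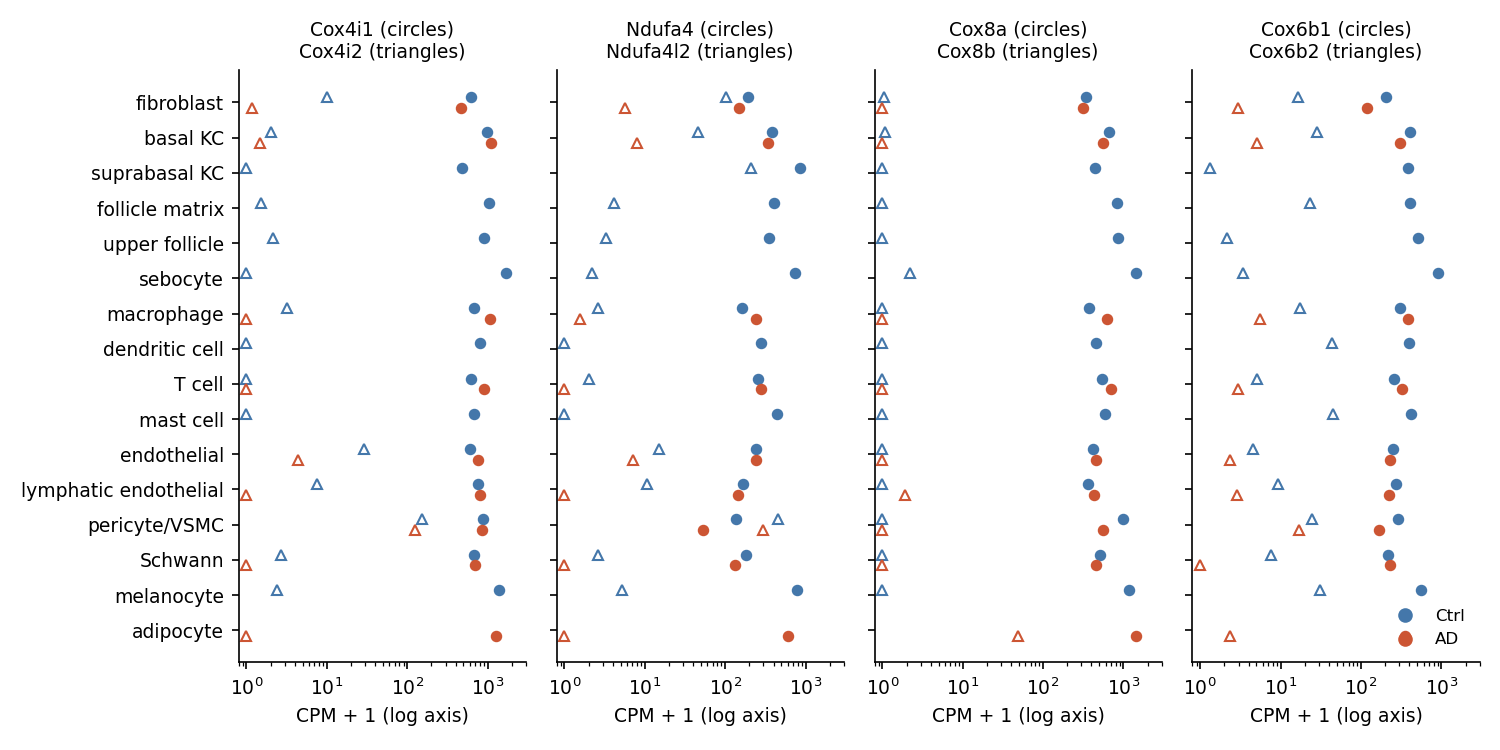
Levels in CPM + 1 (log axis) of 4 pairs of a common form (circles) and a restricted form (triangles), Cox4i1 and Cox4i2, Ndufa4 and Ndufa4l2, Cox8a and Cox8b, and Cox6b1 and Cox6b2, per gated cell type and library. Ndufa4l2 is highest in pericytes (456 and 293 CPM) and differs most in fibroblasts (102 and 4.62 CPM), and Cox4i2 is highest in pericytes (153 and 126 CPM).

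Cox4i2, the restricted form of complex IV subunit 4 known from lung, was at 153 CPM in Ctrl and 126 in AD pericytes, with an interval of the log2 ratio that held 0 (-0.62 to 0.06). Fibroblasts held 494 UMIs (8.98 CPM) in Ctrl and 7 (0.189 CPM) in AD, and endothelial cells 27.8 and 3.40 CPM. Cox8b, a form known from muscle and brown fat, was counted at 47.4 CPM in the AD adipocytes, in 37.5% of cells, at no more than 1 UMI in either library of 7 of the 8 compared types, and at 3 UMIs in Ctrl fibroblasts. Cox6b2 was at 15.5 CPM in Ctrl fibroblasts and 1.92 in AD, and at 27.7 and 4.10 in basal keratinocytes, while its common form Cox6b1 was at 205 and 117 CPM in fibroblasts and 404 and 305 in basal keratinocytes. Cox7a1 and Cox6a2 did not exceed 5.12 CPM in any of the 8 types, while the common forms Cox7a2 (168 and 123 CPM) and Cox6a1 (184 and 122 CPM) were well counted in fibroblasts.

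Members outside the compared set of types gave levels only. As a share of all UMIs, the members took 4.52% in Ctrl sebocytes, 2.69% in melanocytes, 2.64% in AD adipocytes, 2.40% in follicle matrix and inner sheath cells, 2.13% in upper follicle cells, 1.78% in mast cells and 1.62% in both dendritic cells and suprabasal keratinocytes. The lowest were fibroblasts and endothelial cells, at 1.21% each in Ctrl. Over the 108 members, 85 passed the filter in at least 1 compared type and 61 in all 8. The 23 that never did included all 8 complex I assembly factors, 5 of 9 complex IV assembly genes and 6 of 19 complex IV subunits.

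The mitochondrially encoded genes did not simply follow the nuclear ones. In fibroblasts the mt- sum was 25401 CPM in Ctrl and 15658 in AD (-0.70, -0.70 to -0.69), with 12 of 12 tested genes below 0. mt-Nd3 differed most (227 and 89.4 CPM, -1.35) and mt-Nd1 least (1196 and 1128, -0.08). In lymphatic endothelial cells the mt- sum was 28266 and 16017 CPM (-0.82, -0.85 to -0.79), while the nuclear sum was nearly equal. In macrophages it was 28839 and 28610 CPM (-0.01) while the nuclear sum was higher in AD, and in T cells 35270 and 29698 (-0.25), opposite in sign to the nuclear sum. Basal keratinocytes had 39342 and 37771 CPM (-0.06), a value that turned to 0.09 relative to the median of all genes. Among cells with 4000 to 8000 UMIs the mt- ratio was -1.35 in fibroblasts and -0.66 in basal keratinocytes. The sums were -0.29 in endothelial cells, -0.37 in pericytes and -0.26 in Schwann cells. Barcodes with over 10% mt- UMIs had been removed, 690 in Ctrl and 315 in AD, which bounds these levels.

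Other mitochondrial and metabolic genes were taken from lists. The TCA cycle, which feeds the chain with NADH, had 1 of 6 tested genes lower in fibroblasts (Ogdh, 81.2 and 52.0 CPM), beside 20.3% of all genes, and 4 of 12 in basal keratinocytes, beside 17.8%, where Idh2 was at 69.3 and 31.9 CPM and Cs, citrate synthase, at 148 and 94.6. In macrophages 3 of 8 were lower and 1 higher, beside 17.3% lower and 13.7% higher of all genes. Idh2, among the lower ones, was at 104 and 38.1 CPM. The TCA cycle sum in macrophages was 775 and 736 CPM (-0.08, -0.18 to 0.03), so it did not differ beyond counting error. Mitochondrial ribosomal proteins had 1 of 8 lower in fibroblasts, beside the same 20.3%, and 6 of 14 higher in macrophages, beside 13.7%. In fibroblasts all 8 were below 0 (median -0.38), and the sum of that list was 2737 and 2039 CPM (-0.42, -0.44 to -0.41). The TCA cycle sum in fibroblasts was 744 and 631 CPM (-0.24, -0.26 to -0.21), with 5 of the 6 tested genes below 0.

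Glycolysis makes ATP without the respiratory chain. In fibroblasts 2 of 11 of its genes were higher and 0 lower, beside 19.6% higher and 20.3% lower of all genes. The higher ones were Hk2, a hexokinase, at 57.3 CPM in Ctrl and 170 in AD, and Pfkfb3, a regulator of phosphofructokinase, at 19.2 and 99.7. The glycolytic sum in fibroblasts was 1596 and 1640 CPM (0.04), while 7 of the 11 genes were below 0. In macrophages 8 of 12 were higher and 0 lower, beside 13.7% higher and 17.3% lower of all genes. Pkm was at 223 and 566 CPM, Ldha at 138 and 352 and Gapdh at 535 and 1150. The glycolytic sum there was 1988 and 3625 CPM (0.87, 0.81 to 0.93).

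Cytosolic ribosomal proteins, which are also short and abundant transcripts, had a median log2 ratio of -0.23 in fibroblasts, 0.44 in macrophages and 0.71 in T cells. The median of the members in macrophages was 0.31. In fibroblasts 6 of 82 were lower and 0 higher, beside 20.3% lower and 19.6% higher of all genes. In macrophages 23 of 82 were higher and 0 lower, beside 13.7% higher and 17.3% lower. In T cells 59 of 81 were higher, beside 7.54%. In pericytes 34 of 81 were higher, beside 13.4%, and the median was 0.55, opposite to the members there. Of the carriers and uncoupling proteins, 3 of 6 were lower in fibroblasts, beside 20.3% of all genes. Vdac1, the outer membrane channel, was at 114 and 66.6 CPM there, and Ucp2 was at 691 and 175 in basal keratinocytes. Chchd2, the paralogue of Chchd10, was at 547 and 658 CPM in fibroblasts (0.27), and 0 of 5 tested genes of the Chchd family and inner membrane list were past 1.5-fold there. Of the regulators only Yy1 was tested in fibroblasts, at 168 and 273 CPM (0.70), and the other factors whose motifs were searched were under the filter there.

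Of 6 tested mitochondrial and integrated stress genes in fibroblasts, 2 were higher and 1 lower, beside 19.6% higher and 20.3% lower of all genes. Atf4, a transcription factor of the stress response, was at 346 and 639 CPM, Gdf15, a secreted stress signal, at 14.4 and 91.8, and Atf5 at 133 and 39.3. In macrophages Gdf15 was at 391 and 2211 CPM. Genes known to respond to tissue dissociation differed as well, with Fos at 2935 and 5962 CPM in fibroblasts. There 3 of 10 of that list were higher and 1 lower, beside the same 19.6% and 20.3%. In macrophages 7 of 10 were lower, beside 17.3% of all genes, and Hspa1a was at 2656 and 752 CPM. Of 6 proliferation genes, only Pcna was tested in fibroblasts, at 92.1 and 143 CPM. The sum of the 6 went the other way, at 235 and 156 CPM (-0.59, -0.64 to -0.55). The part of dissociation in the member levels was not tested.

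Across the 24 sums of a cell type and a library with at least 50 cells, the gene whose Chchd10-like pattern was closest by rank was Rrs1 (Spearman 0.76 over 3694 genes), followed by the complex I subunit Ndufv1 (0.76), Psmd4 (0.73) and Mrpl20 (0.73). Other members with high values were Ndufa10 (0.64), Cox8a (0.63) and Uqcrfs1 (0.62), and the lowest was Cox17 (-0.18). The summed members followed the mitochondrial ribosomal proteins (0.85), the TCA cycle (0.78), the mt- genes (0.65), glycolysis (0.55) and the cytosolic ribosomal proteins (0.35). The sums share 2 libraries and 1 scale, so these values describe and do not test.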

How the data were processed

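Dorsal skin cells of 1 Ctrl and 1 AD library were profiled by droplet-based 3' single-cell RNA sequencing. The deposited files hold whole-number UMI counts per gene and barcode, made by the authors with Cell Ranger on the mouse build mm10. The submitters' processing notes name Cell Ranger 3.1.0 and Seurat 5.0, while the header of the count matrices names version 5.0.0. No cell annotation was used here, and there were no columns of the authors' own comparisons.

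The members and the gene lists were chosen with earlier results of these data known. Kept barcodes had 200 to 6000 genes, and mt- UMIs made up no more than 10%. A barcode took a cell type if it held at least 3 of its markers and its marker score, scaled on the 50 highest cells, led the next type by 1.5 times. UMIs were summed per type and library and scaled to CPM. A gene was tested if the mean of its 2 CPM values was at least 50 and it held at least 20 UMIs, and it was counted as higher or lower past 1.5-fold with 1 CPM added. Intervals are exact for the ratio of 2 Poisson counts, and exact Clopper-Pearson for shares, and they cover counting error only. Ratios printed with an interval have no CPM added. Counting and calling were tested on simulated data. Fibroblast clusters came from Leiden clustering of both libraries (2000 variable genes without the members, 30 components, 20 neighbours, resolution 1). Doublets were not removed, since the automatic Scrublet call marked none of the AD barcodes. Positions are those of GENCODE M21 on GRCm38, where all 108 members were matched by identifier.

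Named members were the 5 highest and 5 lowest tested members in fibroblasts, basal keratinocytes, macrophages, T cells and endothelial cells, and always Chchd10, Cycs, the Sdh genes, the pairs of common and restricted forms, the subunit c genes and Atpif1. Suprabasal keratinocytes were not compared because AD held 1. Other named members were chosen after their values were seen. For likeness to Chchd10, genes and members among those with the highest Spearman correlation were named. An item that the naming rules picked is not reported here. Python 3.11.15, numpy 2.4.6, scipy 1.17.1, pandas 2.3.3, scanpy 1.11.5, leidenalg 0.10.2 and matplotlib 3.10.9 were used. Alternatives were other cell filters, gates, scalings, depths, thresholds and prior counts, and those by depth and by Scrublet score were added after the data were seen.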

Additional observations from a re-analysis of the deposited data

Results flagged for a closer look

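The summed level of the respiratory chain genes differed in opposite directions between cell types. On the log2 scale, AD stood against Ctrl at 0.35 in macrophages and 0.26 in T cells, and at -0.53 in fibroblasts, -0.44 in pericytes with vascular smooth muscle, -0.32 in basal keratinocytes, -0.14 in Schwann cells and -0.0855 in lymphatic endothelial cells. Each type comes from 1 library per group, so the difference between the types was not tested. Among cells with 4000 to 8000 UMIs in both libraries the T cell ratio was -0.06 and the lymphatic endothelial ratio 0.02.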

How the results depend on the processing

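All values here are log2 ratios of AD over Ctrl for the summed members unless another measure is named, and the cause of each change was not tested. With all deposited barcodes the ratio was -0.59 in fibroblasts, -0.0439 in basal keratinocytes, 0.56 in macrophages and 0.30 in T cells. With a mitochondrial limit of 5% it was -0.34 in basal keratinocytes and -0.32 in pericytes. By Leiden clusters it was -0.55 in fibroblasts, -0.24 in basal keratinocytes, 0.30 in macrophages and -0.20 in Schwann cells. With a stricter gate it was -0.48 in fibroblasts, -0.27 in basal keratinocytes, 0.24 in T cells, -0.34 in pericytes and, reversed, 0.0031 in lymphatic endothelial cells. Without the top 6% of Scrublet scores it was -0.52 in fibroblasts and -0.0014 in lymphatic endothelial cells. In cells with 4000 to 8000 UMIs it was -0.59 in fibroblasts, -0.52 in basal keratinocytes, 0.16 in macrophages, 0.0528 in endothelial cells and -0.67 in pericytes, and it reversed to -0.0611 in T cells and 0.024 in lymphatic endothelial cells. As a mean over cells it was -0.54 in fibroblasts, -0.47 in basal keratinocytes, 0.23 in macrophages, 0.21 in T cells, 0.13 in endothelial cells, -0.0196 in lymphatic endothelial cells, -0.48 in pericytes and -0.0737 in Schwann cells. Scaled without mt-, Rpl and Rps genes it was -0.58, -0.27, 0.42, 0.49, 0.0722 and -0.40 in fibroblasts, basal keratinocytes, macrophages, T cells, endothelial cells and pericytes. Relative to the median of all genes tested it was -0.54, -0.16, 0.38, 0.48, 0.11 and -0.40 in the same types and -0.14 in lymphatic endothelial cells, and the mt- sum of basal keratinocytes reversed to 0.0942. Thinned to 1000 UMIs per cell it was -0.56, -0.41, 0.19, 0.17, 0.19 and -0.50 in the same types, -0.0532 in Schwann cells and, reversed, 0.0544 in lymphatic endothelial cells. With structural subunits only it was -0.58 in fibroblasts.

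Of the values for the summed members under these alternatives, 40 stayed within the counting interval, 50 moved and 4 reversed. The Chchd10 ratio kept its sign in every alternative run in 7 types, at 5.37 to 6.15 in fibroblasts, 2.89 to 4.82 in macrophages, 1.15 to 3.63 in endothelial cells, 0.50 to 2.32 in Schwann cells, 0.40 to 1.83 in pericytes, 0.23 to 1.29 in basal keratinocytes and 0.50 to 1.17 in T cells, and it ran from -0.81 to 0.96 in lymphatic endothelial cells. Of the values for the mt- sum, 60 moved and 1 reversed, with -1.35 to -0.63 in fibroblasts and -0.66 at the low end in basal keratinocytes. The counts past the threshold moved by over 1.5 times in several settings. In fibroblasts 58 members were lower with a lower fold threshold, 10 at 2-fold and 19 with a filter of 100 CPM, against 37. In basal keratinocytes the 18 lower members became 1 with all barcodes, 5 by Leiden clusters, 10 with the stricter gate, 3 relative to the median of all genes, 30 as a mean over cells and 39 among cells of 4000 to 8000 UMIs. In macrophages the 14 higher members became 40 with all barcodes, 23 when scaled without mt-, Rpl and Rps genes, 9 when thinned (with 5 lower) and 6 among cells of 4000 to 8000 UMIs. In T cells the 7 higher members became 22 and 21 under the 2 scalings and 3 among cells of 4000 to 8000 UMIs, where 11 were lower. In lymphatic endothelial cells the stricter gate gave 10 higher and 11 lower, against 2 and 6. In endothelial cells the 3 higher members became 16 when thinned and 9 as a mean over cells, and in pericytes 48 were lower among cells of 4000 to 8000 UMIs, against 29.

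No paired analysis was possible because each group has 1 library, and for the same reason no replicate could be left out. Leaving out called doublets was not run because Scrublet called none in AD. Schwann cells of 4000 to 8000 UMIs were too few (19 and 13), no Leiden cluster took the lymphatic endothelial name, and Chchd10 had no UMI in thinned Ctrl endothelial cells. Depth limits the low members most, and members under a mean of 50 CPM were left out of the counts.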
